A study of Mus musculus with 8 samples.

Results

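The core components of transforming growth factor beta (TGF-beta) signalling were followed in haematopoietic stem cells (HSCs) of Nupr1-/- and wild type mice. They were chosen by name as 10 genes, covering the ligand Tgfb1, its latency partner Ltbp3, the receptors Tgfbr1 and Tgfbr2, the signal transducers Smad2, Smad3 and Smad4, and the inhibitors Smad7, Ski and Skil. Of the 10 genes, 9 were found among the 11854 named genes of the table. Tgfb1 is not among them and was not analysed here. All 9 were among the 10989 genes that passed the filter on low values (10 or more in 4 or more libraries).

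TGF-beta is secreted in a latent complex that latent TGF-beta binding proteins such as LTBP3 tether to the matrix. Once released, the ligand binds the type II receptor TGFBR2, which phosphorylates the type I receptor TGFBR1, which in turn phosphorylates SMAD2 and SMAD3. These join SMAD4, enter the nucleus and act on target genes, among them Smad7 and Skil, whose products feed back to damp the signal. In bone marrow TGF-beta is known as a signal that holds HSCs in quiescence, and megakaryocytes are a known source of it. In cultured mouse fibroblasts Nupr1, a small stress-induced chromatin protein also called p8, is induced by TGF-beta and raises SMAD-dependent transcription.

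Polyadenylated RNA of HSCs sorted from the bone marrow of C57BL/6 mice was sequenced in 4 libraries labelled Nupr1-/- and 4 labelled wild type. The labels do not say whether libraries of a group came from separate mice, so p-values measure the spread between these libraries, which may be technical. The labels give neither the age or sex of the mice, the part of Nupr1 that was deleted, nor the surface markers by which HSCs were sorted. The single comparison asks how the HSC transcriptome differed between the genotypes. Values are normalised reads, that is, reads per gene divided by 1 size factor per library. Differences are on the log2(value + 1) scale, libraries labelled Nupr1-/- minus wild type.

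Nupr1 itself, the targeted gene, was 179, 173, 201 and 119 normalised reads across libraries 1 to 4 labelled Nupr1-/-, against 285.5, 134.0, 245 and 318 in wild type libraries 1 to 4. The groups overlapped (log2 difference -0.50, SE 0.34, limma adjusted p = 0.433), and gene totals cannot tell whether reads fell on deleted exons, so the groups are named here as labelled. Recovered reads numbered 2296101 to 3959564 per library labelled Nupr1-/- and 3340217 to 4769401 per wild type library. The 6 HSC markers Kit, Ly6a, Slamf1, Procr, Mecom and Hlf were in the table, and 0 of them passed the test (limma adjusted p under 0.05). Of the 6, 4 had log2 differences below 0, and 3 of these had an unadjusted p under 0.05, beside 19.7% of all genes tested: Procr (-0.55), Mecom (-0.79) and Hlf (-0.46). Of the lists for other cell types, 4 of 5 tested megakaryocyte and platelet markers (Itga2b, Gp9, Vwf and Pf4) were higher in libraries labelled Nupr1-/-, beside 1.68% of all genes tested. Their summed level, with Gp1ba, was 1848 to 2405 normalised reads in libraries labelled Nupr1-/- against 718 to 1081 in wild type. Vwf (470 to 793) and Itga2b (102 to 289) were present in each wild type library too. Which cells held these transcripts was not tested. Of the 5 erythroid markers 2 were tested, and Klf1 passed, upward. Klf1 was 24.9 to 85.7 in libraries labelled Nupr1-/- and 0 to 2.99 in wild type. It therefore met the filter on low values only through the libraries labelled Nupr1-/-. Hbb-bt, also tested, had a log2 difference of -0.16 (limma adjusted p = 0.846). The erythroid list summed to 182 to 217 in libraries labelled Nupr1-/- and 127 to 185.5 in wild type. Nkg7, the 1 of 5 T and NK cell markers in the table, was 52.5 to 116 in libraries labelled Nupr1-/- and 1.39 to 269 in wild type. The B cell marker Cd79b was 208 to 271 in libraries labelled Nupr1-/- and 238 to 859 in wild type, and Col1a2, the 1 stromal marker in the table, 26.2 to 52.5 in libraries labelled Nupr1-/- and 0 to 72.8 in wild type. Monocyte and macrophage markers (3 of 5 in the table) summed to 1431 to 2616 in libraries labelled Nupr1-/- and 1632 to 3166 in wild type, and endothelial markers (4 of 5) to 506 to 647 in libraries labelled Nupr1-/- and 500.5 to 880.1 in wild type. None of the markers of the last 5 types passed the limma test (1, Cd79b, had an unadjusted p under 0.05), and none of the 6 neutrophil markers is in the table. On the first principal component wild type library 2 lay far from the remaining 7. In these bulk libraries fewer cells of a type and less RNA per cell cannot be told apart.

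Of the 9 components, 1 rose (Ltbp3), 1 fell (Skil) and 7 did not pass the test, beside 3.8% of all genes tested that passed in either direction (1.68% higher, 2.12% lower). The ranges of the 2 groups were separate for 3 of the 9 (Ltbp3, Skil and Smad4), beside 11.7% of all genes tested. The same 3 had an unadjusted limma p under 0.05, beside 19.7% of all genes tested. The median log2 difference of the 9 was 0.28, against 0.03 over all genes tested, with 5 above 0 and 4 below.

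**Figure D1:**
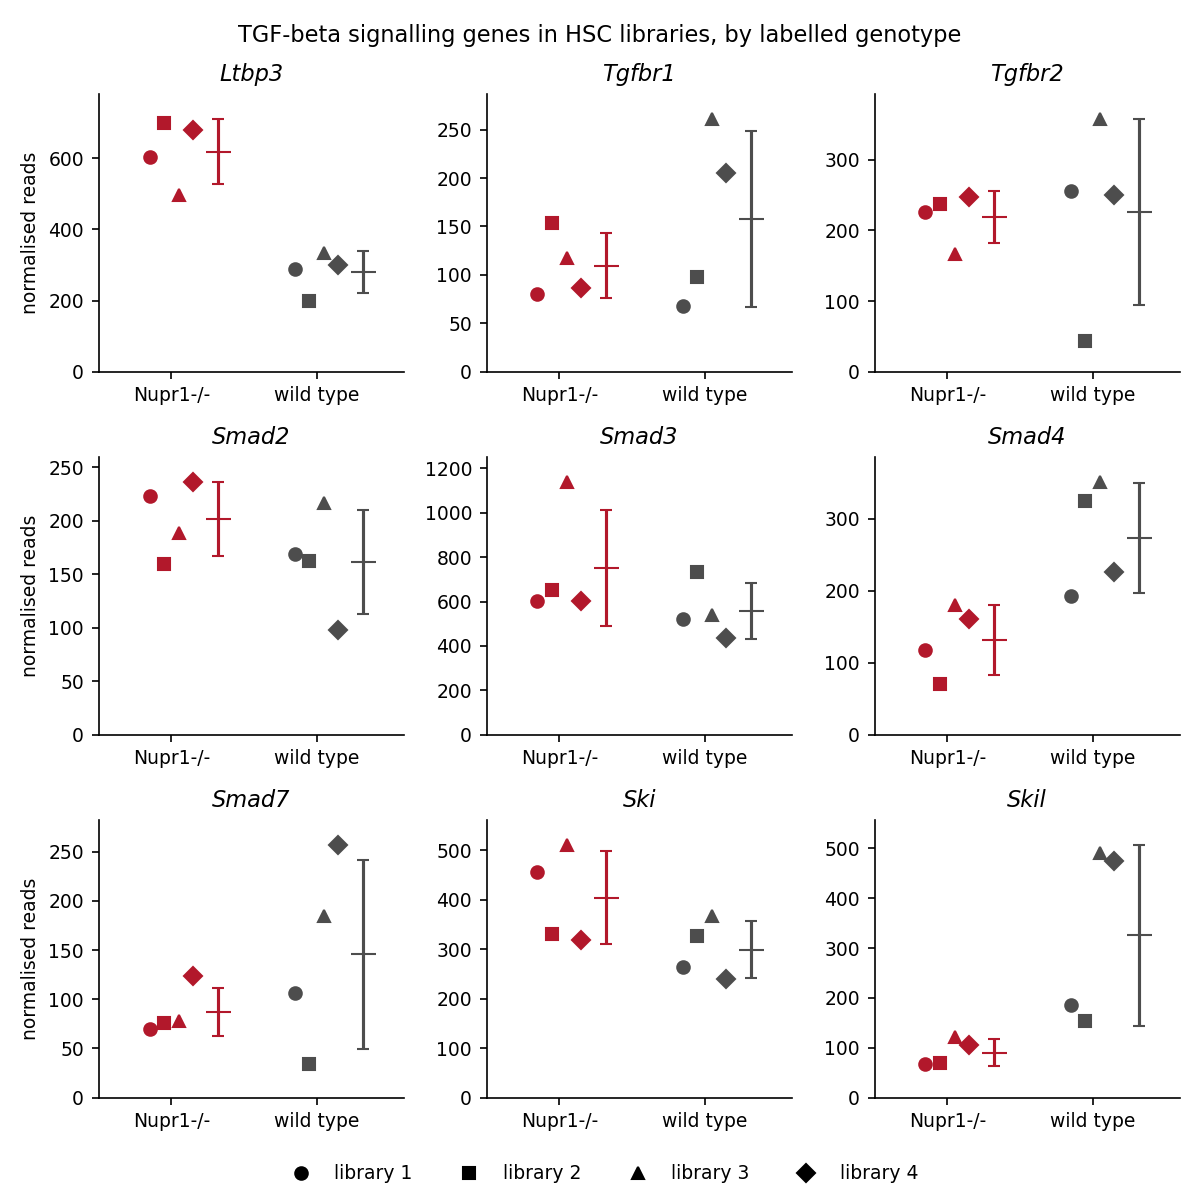
Normalised reads (vertical axes, each from 0) of the 9 components in the 4 libraries labelled Nupr1-/- (red) and the 4 wild type libraries (grey). Marker shapes give the library number, and bars the mean and SD. Ltbp3 lies between 496 and 698 in libraries labelled Nupr1-/- and between 198 and 335 in wild type. Skil lies between 67.1 and 121 in libraries labelled Nupr1-/- and between 153 and 490.5 in wild type.

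Ltbp3, the matrix anchor of latent TGF-beta, was the component that rose. It was 602, 698, 496 and 679.6 normalised reads across libraries 1 to 4 labelled Nupr1-/-, against 288, 198, 335 and 299 in wild type libraries 1 to 4. Every library labelled Nupr1-/- lay above every wild type library. The mean was 619 ± 92.1 in libraries labelled Nupr1-/- and 280.0 ± 58.2 in wild type (SD, n = 4 each). The log2 difference of 1.16 (SE 0.24, 95% interval 0.65 to 1.67) is a 2.23-fold rise on that scale (limma adjusted p = 0.0182; exact permutation p = 0.0286, the smallest that 70 assignments allow, two-sided). The markers of megakaryocytes and platelets rose in the same libraries, and their part in the Ltbp3 result was not tested.

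The protein-coding gene (ENSMUSG00000024940.11) spans chr19:5740904-5758532 of mm10, plus strand. The promoter of Ltbp3 is shown because Ltbp3 rose and SMAD complexes are known to bind the motif marked in it. The RefSeq entry (GRCm38.p6, chr19:5740650-5740949, plus strand) runs from 250 bases before the start of transcription, with capitals for the SMAD box CAGAC, searched on both strands.
Ltbp3 promoter: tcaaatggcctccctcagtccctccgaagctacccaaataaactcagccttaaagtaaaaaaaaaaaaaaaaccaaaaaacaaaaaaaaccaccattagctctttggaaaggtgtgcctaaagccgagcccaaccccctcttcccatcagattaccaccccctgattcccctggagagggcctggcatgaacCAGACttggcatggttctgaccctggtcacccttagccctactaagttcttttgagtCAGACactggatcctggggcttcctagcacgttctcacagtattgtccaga
Its 2 SMAD boxes begin 58 bases and 1 base before the start. A box of these 5 letters is common, being present in 49.6% of the 32851 promoters of the same length. The palindrome GTCTAGAC, found in 0.213% of promoters, the GC-rich element GGCGC (36.9%) and the GC box GGGCGG (35.7%) are not in this window. The GC content of the Ltbp3 window was 48.0%, against 85.3% for Ski, 67.7% for Smad3 and 59.0% for Tgfbr2. Tgfbr1 has 2 windows, with 74.7% and 52.0%. The window of Tgfbr2 and the second of Tgfbr1 each held 1 SMAD box. Windows of Skil, Smad2, Smad4 and Smad7 are not reported here, so these values do not cover all components.

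Neither receptor passed the test. Tgfbr2, the type II receptor that binds the ligand first (chromosome 9), was 226, 237, 166 and 247 normalised reads across libraries 1 to 4 labelled Nupr1-/-, against 255.5, 43.4, 357 and 249 in wild type. The spread lay in wild type, where library 2 held 43.4 and the other 3 at least 249. Its log2 difference was 0.28 (SE 0.50, 95% interval -0.77 to 1.34, limma adjusted p = 0.801), and without wild type library 2 it was -0.39 (adjusted p = 0.455, the range over all alternatives being 0.455 to 0.966). Tgfbr1, the type I receptor kinase that phosphorylates the SMADs (chromosome 4), was 80.2, 153, 117.5 and 86.1 in libraries labelled Nupr1-/-, against 67.5, 97.6, 261 and 206 in wild type. Wild type libraries 3 and 4 lay above all libraries labelled Nupr1-/-, and libraries 1 and 2 within their range or below it. The log2 difference was -0.37 (SE 0.45, 95% interval -1.32 to 0.57, limma adjusted p = 0.689).

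The receptor-activated SMADs did not pass the test either. Smad3 (chromosome 9) was 603.7, 651, 1140 and 603.7 normalised reads across libraries 1 to 4 labelled Nupr1-/-, against 522, 733, 540.4 and 435 in wild type. Library 3 labelled Nupr1-/- stood far above the other 7, and without it the log2 difference was 0.18 in place of 0.40 (SE 0.24 with all 8, limma adjusted p = 0.386). Smad2 (chromosome 18) was 223, 159.6, 188 and 236 in libraries labelled Nupr1-/- and 169, 163, 216 and 97.5 in wild type. The groups overlapped, with a log2 difference of 0.36 (SE 0.33, 95% interval -0.34 to 1.06, limma adjusted p = 0.587).

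Smad4, the partner that SMAD2 and SMAD3 share (chromosome 18), was lower in each library labelled Nupr1-/- than in any wild type library but did not pass the test. It was 118, 69.8, 179 and 160.2 normalised reads across libraries 1 to 4 labelled Nupr1-/-, against 193, 324, 351 and 225 in wild type. The lowest wild type library lay close above the highest library labelled Nupr1-/-. The mean was 132 ± 48.6 in libraries labelled Nupr1-/- and 273 ± 76.2 in wild type (SD, n = 4 each). The log2 difference was -1.09 (SE 0.36, 95% interval -1.84 to -0.34, limma adjusted p = 0.101; exact permutation p = 0.0286, the smallest possible). With DESeq2 the adjusted p was 0.0543, and over all alternatives it ran from 0.0543 to 0.250.

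Skil, which encodes SnoN, a repressor that holds SMAD complexes inactive, was the component that fell. It was 67.1, 68.6, 121 and 105 normalised reads across libraries 1 to 4 labelled Nupr1-/-, against 186, 153, 490.5 and 474 in wild type libraries 1 to 4. Every library labelled Nupr1-/- lay below every wild type library, and within wild type libraries 3 and 4 held far more than libraries 1 and 2. The mean was 90.3 ± 26.8 in libraries labelled Nupr1-/- and 326 ± 181 in wild type (SD, n = 4 each). The log2 difference of -1.69 (SE 0.42, 95% interval -2.57 to -0.82) is a 3.24-fold fall on that scale (limma adjusted p = 0.0340; exact permutation p = 0.0286, the smallest possible). The protein-coding gene (ENSMUSG00000027660.16) spans chr3:31095058-31122577 of mm10, plus strand, and no exon of another gene overlaps it.

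Its paralogue Ski, the other SMAD repressor of the family (chromosome 4), did not pass the test. Ski was 455, 330.4, 511 and 318.5 normalised reads across libraries 1 to 4 labelled Nupr1-/-, against 264, 327, 366 and 239 in wild type. The groups overlapped, with a log2 difference of 0.42 (SE 0.26, 95% interval -0.13 to 0.97, limma adjusted p = 0.390). That interval and the one of Skil do not overlap, although the difference between both genes was not itself tested. Smad7, the inhibitory SMAD that blocks the type I receptor (chromosome 18), was 69.998, 76.1, 77.7 and 123 in libraries labelled Nupr1-/-, against 107, 34.5, 184.5 and 257 in wild type. Wild type libraries 3 and 4 were again the highest of the 8, and wild type library 2 the lowest. Its log2 difference was -0.44 (SE 0.54, 95% interval -1.57 to 0.68, limma adjusted p = 0.690), and -1.01 without wild type library 2 (adjusted p = 0.148, the range over all alternatives being 0.0698 to 0.968).

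**Figure D2:**
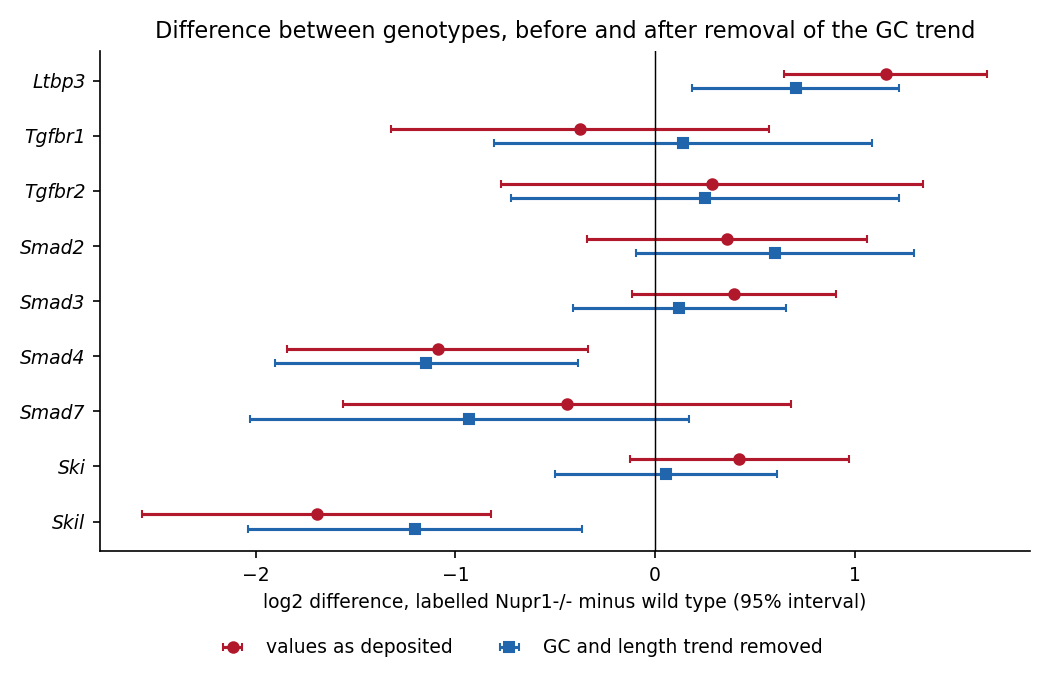
Log2 difference of each component (horizontal axis, libraries labelled Nupr1-/- minus wild type) with its 95% interval from limma, for the values as deposited (red circles) and with the trend of each library in transcript GC content and length removed (blue squares). Ltbp3 goes to 0.70 and Skil to -1.20 after the removal, while Smad4 stays at -1.15.

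The GC content of transcripts moved with the groups. Across 10890 genes the Spearman correlation of transcript GC content with each library's departure from the mean of 8 was 0.150 to 0.301 in libraries labelled Nupr1-/- and -0.303 to -0.138 in wild type, values across genes that are not independent. The longest Ltbp3 transcript has 58.3% GC, above 92.4% of the genes tested, and that of Skil 41.0%, above 9.37% of them. With the trend of each library in GC content and length removed, Ltbp3 had a log2 difference of 0.70 (SE 0.25, limma adjusted p = 0.238) and the groups still did not overlap. Skil had -1.20 (SE 0.40, limma adjusted p = 0.201) and the groups then overlapped. Smad4, with 49.4% GC, had -1.15 (SE 0.36, limma adjusted p = 0.180), close to its value before. After the removal 0 of the 9 components passed the limma test, where 0.211% of all genes did (5 higher and 18 lower, against 185 and 233 before), although the 95% intervals of the same 3 components did not include 0. Over all alternatives the adjusted p ran from 3.72e-04 to 0.302 for Ltbp3 and from 9.63e-04 to 0.201 for Skil.

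**Figure D3:**
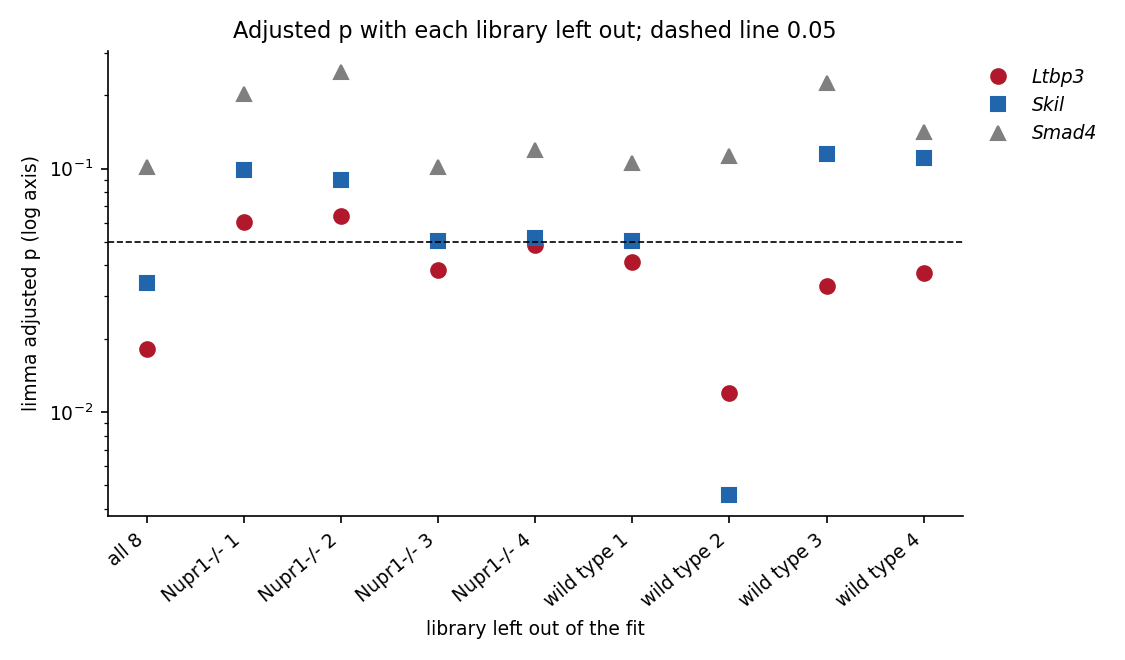
Limma adjusted p (log axis) of Ltbp3, Skil and Smad4 with all 8 libraries and with each library left out in turn (horizontal axis); the dashed line marks 0.05. Ltbp3 stays under the line in 6 of the 8 fits with a library left out and Skil in 1.

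Neither call held in every fit with a library left out. With each library left out in turn, Ltbp3 passed in 6 of 8 fits and missed without library 1 (limma adjusted p = 0.0602) and without library 2 (0.0640) labelled Nupr1-/-. In these fits 61 and 49 of all genes passed, against 418 with all 8 libraries. The log2 difference of Ltbp3 was 0.998 to 1.26 in the 8 fits. Skil passed in 1 of the 8, without wild type library 2 (limma adjusted p = 0.00457), and missed without each of the other 7 (0.0503 to 0.115), with log2 differences of -1.99 to -1.43.

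The libraries of wild type differed more among themselves than those labelled Nupr1-/- for 6 of the 9 components. The coefficient of variation of Smad7 was 28.2% in libraries labelled Nupr1-/- and 66.1% in wild type, that of Tgfbr2 16.6% in libraries labelled Nupr1-/- and 58.1% in wild type, and that of Skil 29.7% in libraries labelled Nupr1-/- and 55.6% in wild type. Skil, Smad7 and Tgfbr1 shared their order in part, since wild type libraries 3 and 4 held the highest values of all 8 libraries for each of the 3 genes. For Ski, Smad3 and Smad4 the spread was wider in libraries labelled Nupr1-/-, at 23.4%, 34.8% and 36.9%, than in wild type, at 19.4%, 22.6% and 27.9%.

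**Figure D4:**
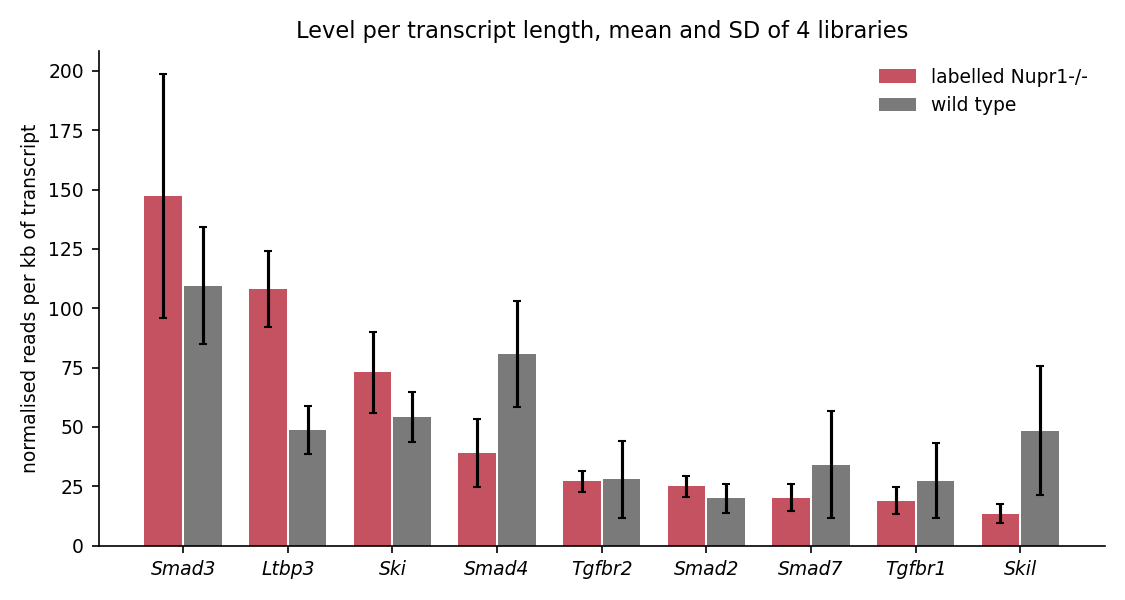
Level of each component as normalised reads per kb of its longest transcript (vertical axis), mean and SD of the 4 libraries labelled Nupr1-/- (red) and the 4 wild type libraries (grey), ordered by the mean in libraries labelled Nupr1-/-. Smad3 is highest in both groups; Skil is lowest in libraries labelled Nupr1-/-, and Smad2 in wild type.

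Per length of transcript, Smad3 was the most abundant component in both groups, with 147 ± 51.3 normalised reads per kb in libraries labelled Nupr1-/- and 109.5 ± 24.7 in wild type (SD, n = 4 each). Its fellow Smad2 had 24.9 ± 4.28 reads per kb in libraries labelled Nupr1-/- and 19.95 ± 6.04 in wild type. In libraries labelled Nupr1-/- the order of mean levels per kb was Smad3, Ltbp3, Ski, Smad4, Tgfbr2, Smad2, Smad7, Tgfbr1 and Skil. Only Ski and Smad4 were neighbours in this order whose ranges over the 4 libraries did not overlap. In wild type the order was Smad3, Smad4, Ski, Ltbp3, Skil, Smad7, Tgfbr2, Tgfbr1 and Smad2, and the ranges of each pair of neighbours overlapped. Ltbp3 thus stood next after Smad3 with 108 ± 16.1 reads per kb in libraries labelled Nupr1-/- and behind Smad3, Smad4 and Ski with 48.9 ± 10.2 in wild type. Skil stood last with 13.4 ± 3.996 in libraries labelled Nupr1-/- and next after Ltbp3 with 48.5 ± 27.0 in wild type. Levels per kb rest on the longest annotated transcript, and reads do not show which transcript was made.

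Of 77 further genes of the pathway, listed by role, 64 were in the table and 63 were tested. Of these 1 rose, 3 fell and 59 did not pass, beside 1.68% of all genes tested that were higher and 2.12% that were lower. Before adjustment 16 of the 63 had a limma p under 0.05, beside 19.7% of all genes. The median log2 difference was -0.19 against 0.03 over all genes, with 22 above 0 and 41 below, where all genes tested had 5640 above and 5349 below. Their groups did not overlap for 9 of the 63, beside 11.7% of all genes.

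Among receptors and their partners, 1 of 12 tested genes rose, 1 fell and 10 did not pass (median log2 difference -0.06), beside 3.8% of all genes called. Of the 12, 3 had an unadjusted limma p under 0.05, beside 19.7% of all genes. Bmpr2, the type II receptor for bone morphogenetic proteins, was 78.7, 107, 53.0 and 126 normalised reads across libraries 1 to 4 labelled Nupr1-/-, against 481, 419, 354 and 176 in wild type. All 4 libraries labelled Nupr1-/- lay below all wild type libraries (log2 difference -1.94, SE 0.38, limma adjusted p = 0.0145). Eng, the co-receptor endoglin, which binds TGF-beta with its type II receptor and is expressed on mouse HSCs, was 847, 989, 1210 and 1193 in libraries labelled Nupr1-/-, against 512.5, 782, 566 and 409.7 in wild type. All 4 libraries labelled Nupr1-/- lay above all wild type libraries (log2 difference 0.92, SE 0.22, limma adjusted p = 0.0305). Exons of Eng overlap those of Fpgs on the other strand over 61 bases.

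Among other SMADs and their cofactors, 0 of 8 tested genes rose, 1 fell and 7 did not pass (median log2 difference -0.88), beside 3.8% of all genes called, and 3 of the 8 had an unadjusted limma p under 0.05, beside 19.7% of all genes. Trim33, a chromatin-binding ubiquitin ligase that works with SMADs in blood cells, was 141.5, 107, 143 and 115 normalised reads in libraries labelled Nupr1-/-, against 318, 346, 357 and 341 in wild type. The groups were far apart and each was tight (log2 difference -1.43, SE 0.29, limma adjusted p = 0.0145). Crebbp, a histone acetyltransferase recruited by SMADs, averaged 209.8 ± 32.3 in libraries labelled Nupr1-/- and 405.5 ± 135 in wild type (SD, n = 4 each; limma adjusted p = 0.0851). Crebbp passed with DESeq2 (adjusted p = 0.0237), with limma-voom (0.0404) and without wild type library 2 (0.0254), the range over all alternatives being 0.0237 to 0.237. Of the proteins that mark or spare receptors and SMADs for degradation, 0 of 15 rose, 1 fell and 14 did not pass (median -0.14), beside the same 3.8% of all genes. Rnf11, a small RING protein that binds SMURF ligases, averaged 206 ± 64.9 in libraries labelled Nupr1-/- and 519 ± 237 in wild type (SD, n = 4 each; log2 difference -1.28, SE 0.34, limma adjusted p = 0.0402). Wwp2, a ubiquitin ligase that targets SMADs, averaged 890.0 ± 199 in libraries labelled Nupr1-/- and 556 ± 102 in wild type (SD, n = 4 each; limma adjusted p = 0.104). Wwp2 passed with DESeq2 (adjusted p = 0.0416) and without wild type library 2 (0.0307), and with the trend of GC content and length removed it had a log2 difference of 0.26 in place of 0.66, the adjusted p over all alternatives being 0.0307 to 0.705.

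Of these 4 genes, Trim33 passed in 7 of 8 fits with a library left out, missing without library 2 labelled Nupr1-/- (limma adjusted p = 0.0536). Bmpr2 passed in 6, missing without library 1 labelled Nupr1-/- and without wild type library 1 (highest 0.0544). Eng passed in 1 of the 8, without wild type library 2 (highest 0.0920, without library 3 labelled Nupr1-/-), and Rnf11 in 2, without library 4 labelled Nupr1-/- and without wild type library 2 (highest 0.144, without library 1 labelled Nupr1-/-). Their transcripts had 43.8% (Trim33), 41.0% (Bmpr2), 57.4% (Eng) and 42.6% (Rnf11) GC. With the GC and length trend removed none of the 4 passed, with log2 differences of -1.10 (limma adjusted p = 0.123), -1.49 (0.110), 0.40 (0.502) and -0.85 (0.274).

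Of the ligands and the genes of latency and activation, 0 of 8 tested passed in limma, while 2 had an unadjusted p under 0.05, close to the 19.7% of all genes. Of the 8, 6 lay above 0 (median log2 difference 0.93, against 0.03 over all genes tested). Itgb5, Lrrc32, Thbs1 and Tgfb3 among these had low wild type means (5.07, 4.74, 9.30 and 13.5). They met the filter mostly through libraries labelled Nupr1-/-. Ltbp4 lay above 0 though its mean in libraries labelled Nupr1-/- was 96.5% of wild type. The count above 0 and the median therefore give no direction for this list. Nrros, which tethers latent TGF-beta to the surface of myeloid cells, was 1005, 961, 1012 and 1238 normalised reads in libraries labelled Nupr1-/-, against 780.5, 717, 747 and 631 in wild type. The groups did not overlap (log2 difference 0.55, SE 0.18, limma adjusted p = 0.106; 0.0338 with DESeq2, and 0.0338 to 0.708 over all alternatives). With the GC and length trend removed the log2 difference of Nrros was 0.23. Itgb5, an integrin chain that can take part in releasing latent TGF-beta, was 65.6, 64.8, 80.4 and 16.7 in libraries labelled Nupr1-/-, against 12.5, 0, 6.98 and 0.756 in wild type (limma adjusted p = 0.0708, 0.0411 with 5 in place of 1 added before the log, and 0.0411 to 0.235 over all alternatives).

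Of 15 tested genes known as TGF-beta targets, 0 passed in limma, while 4 had an unadjusted p under 0.05, beside 19.7% of all genes. Of the 15, 3 lay above 0 and 12 below (median log2 difference -0.47), where all genes tested had 5640 above and 5349 below. The list was not split by whether TGF-beta raises or lowers each gene. These counts therefore give no direction for the activity of the pathway. Klf10, an early TGF-beta-induced factor, was 39.4, 118, 164 and 87.0 normalised reads in libraries labelled Nupr1-/-, against 171, 200.03, 311 and 336 in wild type. The groups did not overlap (log2 difference -1.42, SE 0.43, limma adjusted p = 0.0699; 0.0327 with DESeq2, and 0.0238 to 0.201 over all alternatives). Cited2, a coregulator that binds CREBBP, averaged 214 ± 38.7 in libraries labelled Nupr1-/- and 429 ± 172 in wild type (SD, n = 4 each; limma adjusted p = 0.0864). Cited2 passed with DESeq2 (adjusted p = 0.0238), with limma-voom (0.0463) and without wild type library 2 (0.0231). With the GC and length trend removed its log2 difference was -1.27 (limma adjusted p = 0.0693) in place of -0.94, and without wild type library 2 as well -1.41 (0.0140), the range over all alternatives being 0.0140 to 0.246. DESeq2 called 10 of the 63 further genes, beside 775 of the 8850 genes of the whole table to which it gave an adjusted p. With edgeR 4 of the 63 were called, beside 341 of 10989 genes. In the branch that runs through TAK1 rather than SMADs, 0 of 5 tested genes passed in limma and 1 had an unadjusted p under 0.05, Tab2 (353 ± 86.7 in libraries labelled Nupr1-/- and 526 ± 62.8 in wild type, SD, n = 4 each; adjusted p = 0.178). Tab1, its fellow TAK1-binding protein, averaged 161 ± 38.7 in libraries labelled Nupr1-/- and 98.2 ± 28.7 in wild type (SD, n = 4 each; limma adjusted p = 0.2998).

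**Figure D5:**
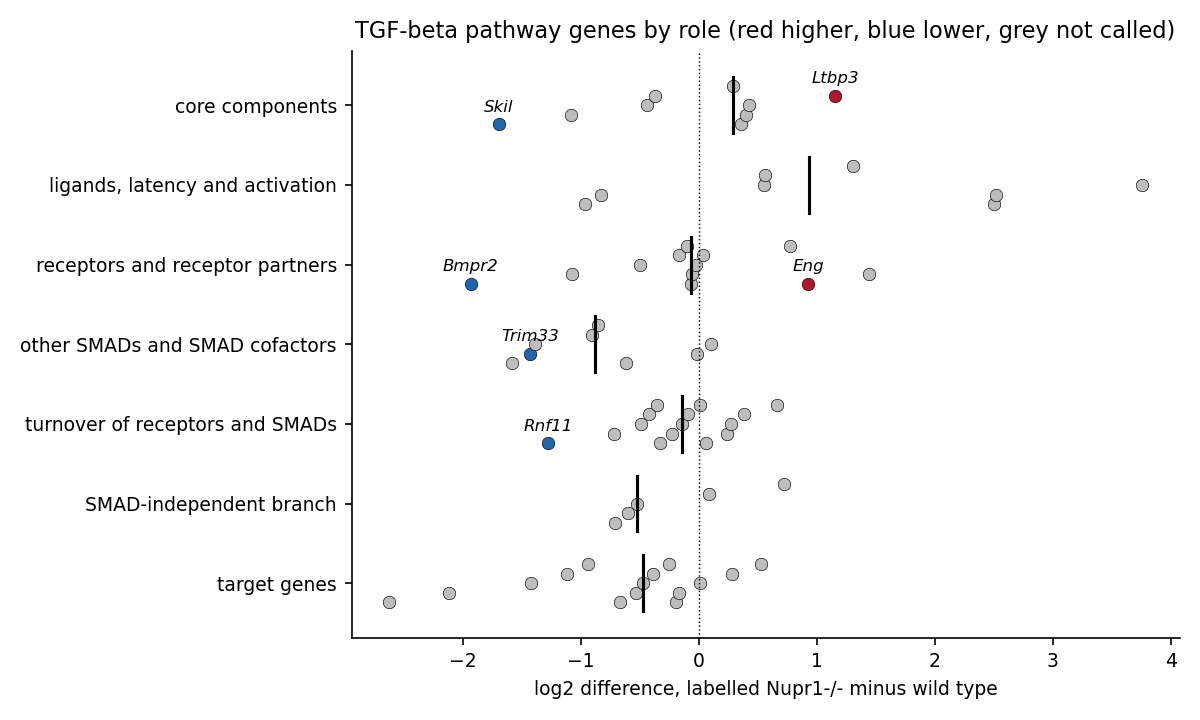
Log2 differences (horizontal axis, libraries labelled Nupr1-/- minus wild type) of the 9 core components and of 63 further pathway genes by role. Each point is a gene, and the black bar of each row is its median. Genes that passed the test are named, in red where higher (Ltbp3 and Eng) and in blue where lower (Skil, Bmpr2, Trim33 and Rnf11).

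The genes whose pattern over the 8 libraries was most like that of each called component were found by the root mean square difference of log2 values, each gene centred on its own mean. For Ltbp3 they were Mon1a (0.152), a factor of late endosomes, P2rx1 (0.187), an ATP-gated channel of platelets, and Gstz1 (0.190), an enzyme of tyrosine breakdown, where the median over all genes was 0.882. For Skil they were S100a4 (0.327), a calcium-binding protein, Birc3 (0.339), an inhibitor of apoptosis, and Acin1 (0.357), a nuclear RNA-processing protein, where the median was 1.22. S100a4 was 68.5, 107, 107 and 97.2 normalised reads across libraries 1 to 4 labelled Nupr1-/-, against 228, 120.2, 407 and 365 in wild type, with wild type libraries 3 and 4 highest as for Skil. These distances describe 8 libraries that also share their genotype labels.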

How the data were processed

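RNA was reverse transcribed and made into Nextera XT libraries, per the labels' protocols, a kit that does not mark strand. The submitters' processing notes name bcl2fastq, HISAT2, featureCounts, Subread, DESeq2 and mm10, with no settings. The table is presented as raw counts, but the deposited values are a normalised signal per gene. All values (100%) were whole multiples of 1 step per library within 0.001, so reads were recovered by division; for wild type library 3, whose step is 0.997, this rests on its low values. On recovered reads edgeR called 341 genes. Among 11855 entries, each above 0 in at least 3 libraries, 1 without a name was left out (at most 0.00109% of reads). 

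Values were tested on the log2(value + 1) scale with limma 3.58.1 (eBayes, trend and robust) in R 4.3.3 on 10989 genes, two-sided, with Benjamini-Hochberg adjustment over all of them and a threshold of 0.05. Alternatives used edgeR 4.0.16, DESeq2 1.42.0, limma-voom, 5 added in place of 1, no filter, each library left out, the replicate number as a block, and loess removal of the GC and length trend. Positions, lengths and GC content came from GENCODE M21 (mm10), which matched 11263 symbols and 454 more through older symbols, while 137 had no match, and 99.1% of tested genes had a GC value. Promoters came from RefSeq GRCm38.p6. On simulated data the fit recovered 14 of 97 genes changed 2-fold (14.4%) and 57 of 94 changed 4-fold (60.6%). A gene that did not pass may therefore still differ between the groups. The titles give both groups the replicate numbers 1 to 4, which were not found to pair them. Genes named beyond the 9 components were, in each list, those called or, with fewer than 2, those of smallest p up to 2, and the 3 nearest in pattern to each called component. Markers were named outside that rule, and a few items are not reported here. The components, lists, tests and settings were chosen with earlier results of these data known.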

Additional observations from a re-analysis of the deposited data

Results flagged for a closer look

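Among 18 combinations of a component and a group, 2 held a library far from the other 3 of its group by Dixon's test, where chance flags about 1 in 20. Smad3 was 1140 normalised reads in library 3 labelled Nupr1-/-, and the gap to the next library was 0.912 of the range of that group. Smad7 was 123 normalised reads in library 4 labelled Nupr1-/-, with a gap of 0.854 of the range.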

How the results depend on the processing

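Of 204 values from alternatives, 146 kept their direction and side of the threshold or, for counts, lay within 1.5 times. Ltbp3 and Skil passed with edgeR, DESeq2, limma-voom, 5 added before the log, no filter and the replicate block. With the GC and length trend removed the log2 difference was 0.70 for Ltbp3 and -1.20 for Skil, with and without the replicate block, and 0.56 and -1.43 when wild type library 2 was also left out, an alternative chosen after seeing the data. None of these passed, and the cause was not tested. Leaving out 1 library gave 0.998 to 1.26 for Ltbp3 and -1.99 to -1.43 for Skil. Tgfbr2 turned to -0.054 with edgeR and -0.048 with both DESeq2 and limma-voom, ran from -0.39 (without wild type library 2) to 0.62 with 1 library left out, and was -0.37 with the trend removed and without wild type library 2. Tgfbr1 turned to 0.14 with the trend removed, with and without the block, and to 0.039 also without wild type library 2.

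The 2 called components were 0 with the trend removed (also with the block, or without wild type library 2) and 0 to 2 with 1 library left out. The 4 further pathway genes called were 10 with DESeq2, 8 with limma-voom, 0 with the trend removed, with or without the block, 3 with the trend removed and without wild type library 2, 3 with the replicate block alone, under which Rnf11 missed (limma adjusted p = 0.0564), and 1 to 10 with 1 library left out. The 418 genes called overall were 775 with DESeq2, 651 with limma-voom, 277 with the replicate block, 23 with the trend removed, 26 with the trend removed and the block, 250 when wild type library 2 was also left out, and 49 to 881 with 1 library left out. Same-numbered libraries correlated by -0.0566 to 0.0148 in their deviations from the group means. No pairing by number was seen, though so few values cannot exclude it. Reads per component and library ran from 35 (Smad7) to 1290 (Smad3), which limits the precision of the lower ones.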
